A study of Mus musculus with 2 samples.

Results

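Heat shock proteins and their partner chaperones were compared between 1 array of RNA labelled Mof null and 1 array of RNA labelled wild type, both from mouse embryonic stem cells. Members were taken by gene symbol: the Hsp genes of the cytosol and mitochondria, the J proteins Dnaja, Dnajb and Dnajc, the CCT chaperonin genes with Tcp1, the cofactors Bag1 to Bag6 and the heat shock factors Hsf1 and Hsf2, without the endoplasmic reticulum chaperones Hspa5, Hsp90b1, Dnajb9, Dnajb11 and Dnajc3 and without Hspbp1 and Hspg2. Of 34945 probe sets that name 1 gene, 197 probe sets of 81 genes met this rule, out of 18193 genes in all. Hsf1 and Hsp90ab1 had no probe set with a name of its own and were not analysed here. The rule reads gene names and no measured value. It also takes in proteins outside the cytosol, among them the mitochondrial Hspd1, Hspe1 and Hspa9 and the endoplasmic reticulum proteins Hspa13, Dnajc1 and Dnajc10.

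The Mof protein, made from the Kat8 gene, adds acetyl groups to histone H4. The culture labelled MOF-/- and the culture labelled MOF +/+ were both of strain C57BL/6, came from embryos at 3.5 days post coitum, and were used between passages 15 and 18. Both were grown with LIF on feeder layers of mouse embryonic fibroblasts and then passaged without feeders to deplete those cells. How the null allele was made, and whether each line is 1 clone, is not stated in the sources used here. Each genotype has 1 array, so the differences carry no replicate error and no test, and a gene is counted by size alone, at an absolute difference of 1 log2 unit (2-fold) or more. Values are RMA values on a log2 scale, and every difference is the value labelled Mof null minus the value labelled wild type. Kat8 itself read 8.37 on the array labelled Mof null and 8.06 on the array labelled wild type. The position of its probe set relative to the deleted part is not stated in the sources read, so this value does not check the labels.

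The stem cell markers Pou5f1, Sox2 and Nanog read 12.74, 12.81 and 12.66 on the array labelled Mof null, and 12.22, 12.05 and 11.92 on the array labelled wild type. Fibroblast markers were also well above the level filter on both arrays, as Col1a1 read 10.21 on the array labelled Mof null and 13.13 on the array labelled wild type. Of 27 measured fibroblast markers 24 were at least 2-fold lower with the Mof null label and none was higher, with a median of -1.91, and their summed intensity was 68993 against 194430 units with the wild type label. The lowest fibroblast marker on either array was Fap, at 6.52 on the array labelled Mof null and 8.27 on the array labelled wild type. In RNA of a whole culture, fewer cells of a type and less RNA per cell cannot be told apart.

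Chaperones help other proteins to fold, keep unfolded ones from clumping and pass damaged ones to degradation. HSP70 proteins bind short greasy stretches in a cycle driven by ATP. J proteins deliver clients to HSP70 and start ATP hydrolysis, while HSP110 and BAG proteins make HSP70 release its nucleotide. HSP90 matures kinases and steroid receptors, and chaperonins such as CCT enclose a client, for example actin or tubulin, in a barrel. Small heat shock proteins hold unfolded clients without ATP. Some members are made at all times in every cell, and others are induced by heat shock factor 1 when unfolded protein accumulates.

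That induction is known to run through the heat shock element, built of inverted GAA and TTC blocks, and the promoters below are shown with each pair of such blocks marked. They are shown for 4 genes that were lower with the Mof null label (Hspa1b, Bag3, Hspb8 and Dnajb4) and for 2 that differed little (Hsph1 and Hspe1). Every promoter shown holds such a pair, which is not so of the lower genes as a whole. Of the 9 chaperone genes counted as 2-fold lower, 5 had a pair in a window, the near copies Hspa1a and Hspa1b among them. A pair stood in 13 of 46 chaperone genes under 2-fold and in 17.0% of all genes with a window. Each window runs from 250 bases before to 50 bases after a gene start, 5′ to 3′ on the gene's strand, from RefSeq on GRCm38.p6. Capitals mark every GAANNTTC and TTCNNGAA, each of which reads the same on both strands.
Hspa1b, chr17:34959189-34959488, minus strand: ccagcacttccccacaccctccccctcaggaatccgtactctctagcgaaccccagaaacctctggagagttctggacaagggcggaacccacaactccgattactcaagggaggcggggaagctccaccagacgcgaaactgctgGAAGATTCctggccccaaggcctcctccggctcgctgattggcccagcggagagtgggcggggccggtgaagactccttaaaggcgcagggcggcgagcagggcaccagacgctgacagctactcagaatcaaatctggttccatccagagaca
Bag3, chr7:128523333-128523632, plus strand: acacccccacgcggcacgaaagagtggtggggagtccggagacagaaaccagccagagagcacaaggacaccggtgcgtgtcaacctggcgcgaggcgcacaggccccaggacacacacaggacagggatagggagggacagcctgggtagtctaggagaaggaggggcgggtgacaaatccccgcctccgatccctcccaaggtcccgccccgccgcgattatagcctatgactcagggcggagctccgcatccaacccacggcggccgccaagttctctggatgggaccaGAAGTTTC
Hspb8, chr5:116422815-116423114, minus strand: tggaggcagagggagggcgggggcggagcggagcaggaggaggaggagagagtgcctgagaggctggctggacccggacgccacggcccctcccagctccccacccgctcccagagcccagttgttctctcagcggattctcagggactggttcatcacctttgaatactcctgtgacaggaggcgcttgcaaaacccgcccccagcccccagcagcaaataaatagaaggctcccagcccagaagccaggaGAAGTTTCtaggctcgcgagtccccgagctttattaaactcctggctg
Dnajb4, chr3:152193796-152194095, minus strand: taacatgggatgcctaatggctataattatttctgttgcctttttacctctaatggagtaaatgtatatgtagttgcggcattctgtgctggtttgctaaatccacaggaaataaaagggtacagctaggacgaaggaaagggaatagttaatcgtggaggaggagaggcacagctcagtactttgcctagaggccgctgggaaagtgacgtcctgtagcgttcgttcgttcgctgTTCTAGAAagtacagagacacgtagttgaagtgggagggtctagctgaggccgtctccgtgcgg
Hsph1, chr5:149636266-149636565, minus strand: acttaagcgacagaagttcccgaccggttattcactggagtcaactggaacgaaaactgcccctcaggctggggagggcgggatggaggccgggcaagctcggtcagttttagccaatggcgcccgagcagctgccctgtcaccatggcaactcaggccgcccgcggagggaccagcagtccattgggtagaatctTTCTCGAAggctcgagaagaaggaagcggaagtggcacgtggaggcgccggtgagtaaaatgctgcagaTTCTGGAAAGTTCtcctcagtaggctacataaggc
Hspe1, chr1:55087898-55088197, plus strand: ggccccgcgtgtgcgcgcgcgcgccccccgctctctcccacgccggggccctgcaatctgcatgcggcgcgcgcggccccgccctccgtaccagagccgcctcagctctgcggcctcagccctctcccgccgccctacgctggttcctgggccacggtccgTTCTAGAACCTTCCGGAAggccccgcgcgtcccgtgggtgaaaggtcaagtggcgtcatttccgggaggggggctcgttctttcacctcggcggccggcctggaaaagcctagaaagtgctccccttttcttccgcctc
Hspa1b, Bag3 and Hspb8 each held 1 GAANNTTC, starting at position -104, 43 and 3 from the gene start (position 1). Dnajb4 and Hsph1 have 2 windows each, of which 1 is shown, and that of Dnajb4 held TTCNNGAA at position -14. In Hsph1, 2 of the marked pairs run into each other and make 3 blocks in a row, and the pair at position -54 stands apart. In Hspe1 the 3 marked pairs all run into each other and hold 2 overlapping runs of 3 blocks. Such a run is TTCNNGAA followed by NNTTC or GAANNTTC followed by NNGAA. These 2 forms are reverse complements of each other, and each contains both pairs.

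Counted by gene, chaperones passed 2-fold about as often as all genes did, and counted by probe set less often. Of the 81 genes, 71 passed the level filter, a mean over both arrays of at least 6.02 log2 units, the median of all values. The probe set with the highest mean stands for its gene in these counts. At least 2-fold lower were 9 of the 71 chaperone genes, or 12.7%, against 11.5% of the 11612 genes past the filter. At least 2-fold higher were 3 chaperone genes, or 4.23%, against 4.88% of all genes. Counted by probe set, 11 of 154 (7.14%) were lower, against 10.5% of all probe sets past the filter, and 4 (2.60%) were higher, against 4.32%; this gap was not tested. The median chaperone gene differed by 0.14 log2 units and the median gene by 0.10. Above 0 were 44 chaperone genes (62.0%), against 56.7% of all genes. The split of 9 lower and 3 higher moved with the scaling, as did that of all genes. After centring on the median gene it was 13 and 2, with 12.8% and 3.55% of all genes. After correction of a trend with level it was 11 and 1, with 12.8% and 3.76% of all genes, and after quantile normalization 9 and 4, with 11.1% and 5.49%. Relative to the median of the stem cell markers, a subtraction of 0.61 from every gene, it was 18 and 0, with 24.1% and 0.663% of all genes. The genes nearest to the limits were Bag2 (-1.10) and Bag4 (1.01) inside, and Dnajc25 (-0.99) and Dnajb13 (0.95) outside. No chaperone gene passed 4-fold on its brightest probe set.

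**Figure D1:**
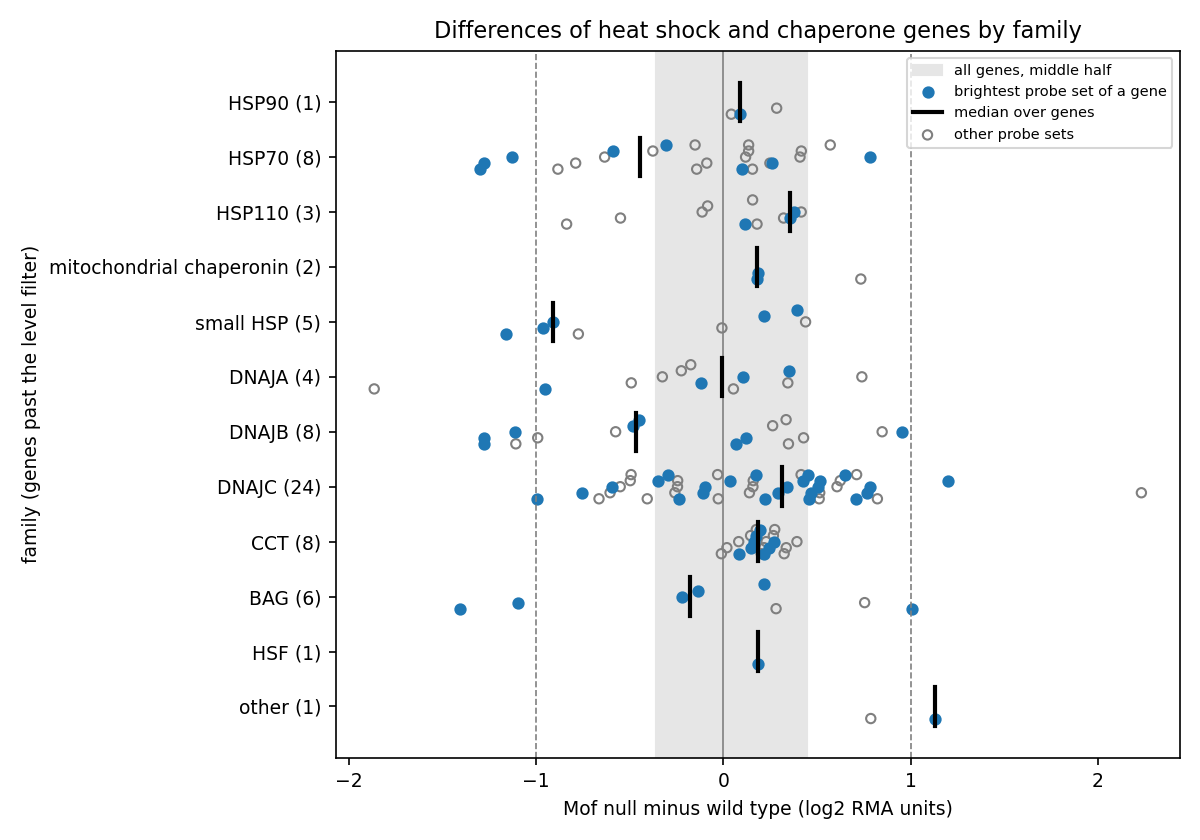
Each row is a family, with the number of its genes past the level filter in brackets, and the horizontal axis is the log2 difference, labelled Mof null minus labelled wild type. Filled points are the brightest probe set of each gene, open points its other probe sets, black bars family medians, the grey band the interquartile range of all genes and dashed lines 2-fold. CCT genes lie within 0.08 to 0.27, while HSP70, small HSP, DNAJB and BAG members spread from beyond -1 to above 0.

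Genes of the always-present folding machinery lay close together and slightly above 0. All 8 subunit genes of the CCT ring, which folds actin and tubulin, had differences between 0.08 (Cct6a) and 0.27 (Cct7), with a median of 0.18 and an SD over genes of 0.060. Tcp1, the first subunit, read 13.11 on the array labelled Mof null and 12.96 on the array labelled wild type. Cct2, Cct3, Cct4, Cct5 and Cct8 differed by 0.22, 0.16, 0.24, 0.17 and 0.19. Over their 21 probe sets past the filter the range was -0.01 to 0.39. The small positive sign held for 7 of the 8 genes after centring on the median gene, where Cct6a turned to -0.02, and for none relative to the stem cell marker median, where the family median was -0.43. These differences were smaller than the pooled SD of 0.32 between probe sets of the same gene (5079 genes).

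The main HSP90 and HSP70 genes also differed little. Hsp90aa1, the inducible form of cytosolic HSP90, read 14.05 on the array labelled Mof null and 13.97 on the array labelled wild type, and its 3 probe sets past the filter differed by 0.04 to 0.28. Hspa8, the constitutive HSP70 of the cytosol, read 14.12 on the array labelled Mof null and 14.02 on the array labelled wild type, with 4 probe sets between 0.10 and 0.42. Of the HSP110 genes, which free HSP70 of its nucleotide, Hspa4 differed by 0.38 and Hsph1 by 0.11. Hspa4l had 0.36 on the probe set with the highest mean and values from -0.84 to -0.08 on 4 others, so its probe sets differed in sign. The difference of Hsp90aa1 turned to -0.01 and that of Hspa8 to -0.00032 after centring, that of Hsph1 turned to -0.00069 after trend correction, and all of these turned negative relative to the stem cell marker median.

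The chaperonin of mitochondria gave the closest pair. Hspd1 (HSP60), the barrel, read 13.56 on the array labelled Mof null and 13.38 on the array labelled wild type. Hspe1 (HSP10), its lid, read 13.22 on the array labelled Mof null and 13.04 on the array labelled wild type. Their differences were 0.18 and 0.19, and a second, less bright Hspe1 probe set gave 0.73. The genes are neighbours with no gene start between theirs, and the promoter windows of the pair overlap on opposite strands, so the Hspe1 window shown above also holds the elements of Hspd1. Of the other mitochondrial members, Hspa9 (mortalin, the HSP70 of the matrix) differed by 0.26, Dnaja3 by 0.35, Dnajc11 by 0.46 and Dnajc15 by 0.52, and Dnajc30 by -0.24. Of the 7 members grouped as mitochondrial 6 were above 0, against 56.7% of all genes. None of them passed 2-fold, as 16.4% of all genes did. A positive median also stood in 7 mitochondrial chaperones and proteases outside the rule, at 0.27, of which the HSP90 of mitochondria, Trap1, differed by 0.45 and the protease Lonp1 by 0.72.

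The stress-inducible HSP70 genes lay on the other side. Hspa1b read 8.70 on the array labelled Mof null and 9.83 on the array labelled wild type, 2.19-fold lower with the Mof null label. Its other probe sets differed by -0.79 and -0.88, so all 3 were lower and 1 passed 2-fold. Hspa1a read 5.70 on the array labelled Mof null, below the filter value, and 7.0 on the array labelled wild type. Hspa1a thus passed the filter through the array where it was high, and it is the 1 such gene among the 9 counted as lower. Hspa1a and Hspa1b are adjacent copies, and their promoter windows hold the same base at 296 of 300 positions, so their values cannot be counted as 2 independent observations and the array may not separate their transcripts.

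The rest of the HSP70 family went both ways. Hspa12a, a distant relative, was 2.42-fold lower on its brightest probe set, at 6.27 on the array labelled Mof null and 7.55 on the array labelled wild type, while its other probe sets past the filter differed by -0.63 and -0.15. Hspa13, an HSP70 of the secretory pathway, differed by -0.59, with 4 probe sets from -0.59 to -0.09. Hspa2, which is enriched in testis, differed by -0.31. Hspa14 read 11.62 on the array labelled Mof null and 10.84 on the array labelled wild type, a difference of 0.78, and its other probe sets gave 0.57 and 0.13. Hspa14 works at the ribosome together with the J protein Dnajc2, which differed by 0.45 with all 3 probe sets past the filter between 0.42 and 0.51. The family had 3 of 8 genes 2-fold lower and none 2-fold higher, against 11.5% and 4.88% of all genes. The near copies Hspa1a and Hspa1b are both in this count and in the family median. By probe set 3 of 23 (13.0%) were lower, against 10.5% of all probe sets. The family median was -0.45, and it was 0.10 when only genes above percentile 75 of all values were kept.

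**Figure D2:**
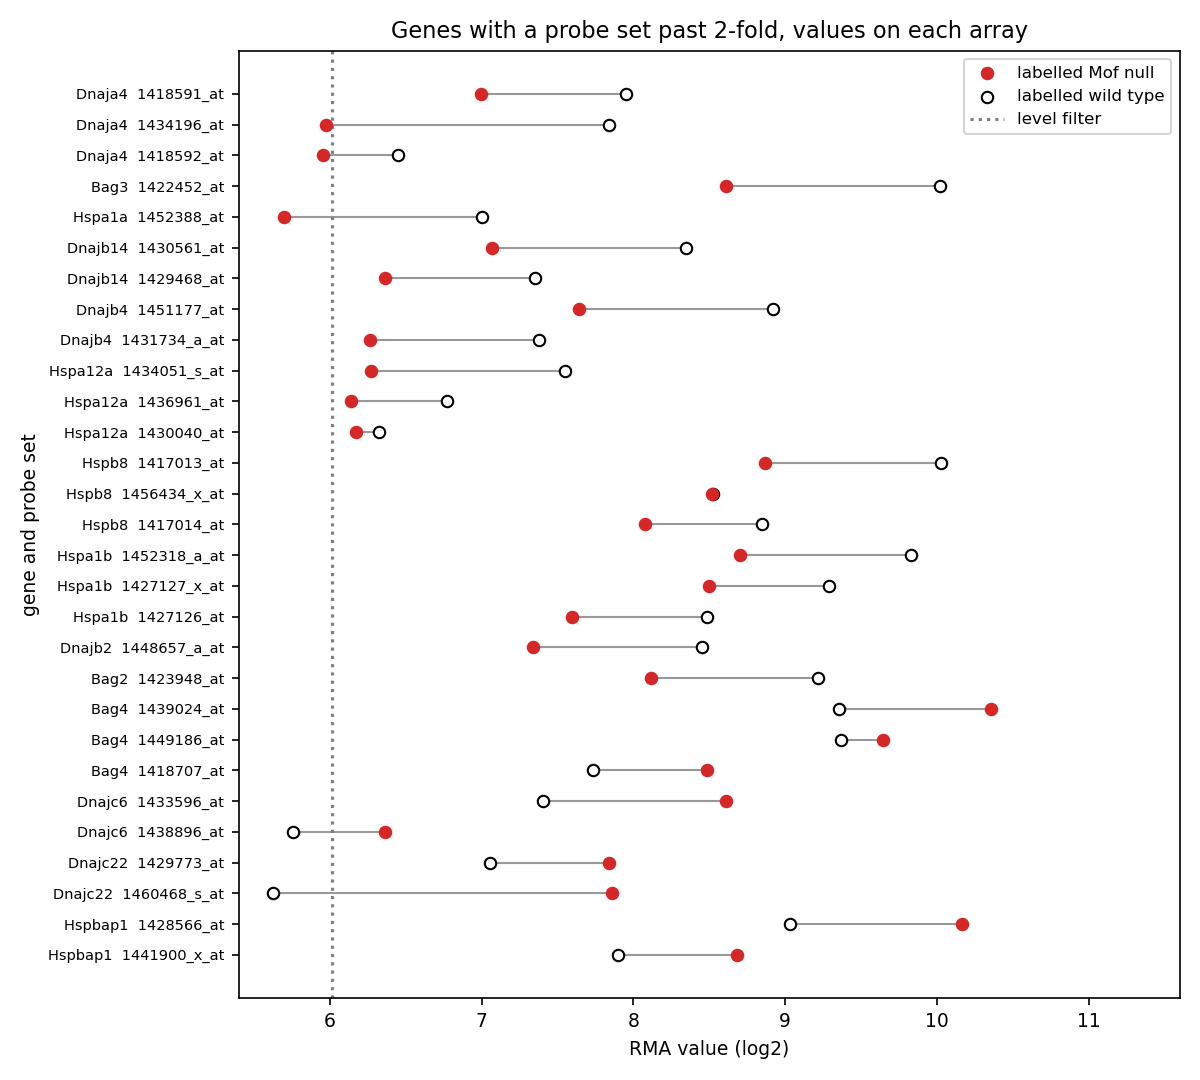
Every probe set past the level filter of the 14 genes with at least 1 probe set past 2-fold, with the log2 RMA value on the horizontal axis. Red points are the array labelled Mof null, open points the array labelled wild type and the dotted line the level filter of 6.02. Of these genes 10 lie lower and 4 higher with the Mof null label, and 1 probe set of Hspb8 reads nearly the same on both arrays. Taking any probe set is a looser rule than the brightest probe set, which gave 9 lower and 3 higher. The share of all genes under the looser rule was not computed.

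Small heat shock proteins split by gene. Hspb8, which pairs with Bag3 to hand clients to autophagy, read 8.87 on the array labelled Mof null and 10.03 on the array labelled wild type, 2.24-fold lower, while other probe sets differed by -0.77 and -0.01. Hspb6, known from muscle, read 5.94 on the array labelled Mof null and 6.90 on the array labelled wild type, a difference of -0.97. Hspb11, which carries the family name but is a part of the intraflagellar transport machinery, differed by -0.91. Hspb1 (HSP25 in the mouse) went the other way, with 13.50 on the array labelled Mof null against 13.28 on the array labelled wild type and a second probe set at 0.44. Hspb2 differed by 0.39, with 6.23 on the array labelled Mof null and 5.83 on the array labelled wild type. Hspb6 and Hspb2 each passed the filter through the array where they were high. Hspb3, Hspb7 and Hspb9 were below the filter on both arrays. The median of the 5 genes past the filter was -0.91, but -0.39 when the probe sets of a gene were averaged and -0.20 with no filter. Cryab, the alpha-B crystallin gene beside Hspb2 and a relative outside the rule, read 9.0 on the array labelled Mof null and 10.74 on the array labelled wild type, 3.35-fold lower, with a second probe set at -1.72.

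BAG proteins, which share a domain that binds HSP70, had members past 2-fold in both directions. Of 6 genes 2 were lower and 1 higher, against 11.5% and 4.88% of all genes. By probe set 2 of 8 were lower and 1 higher, against 10.5% and 4.32% of all probe sets. Bag3, induced by stress and a carrier of clients to autophagy, had the largest negative difference among the chaperone genes counted by their brightest probe set, at 8.61 on the array labelled Mof null and 10.02 on the array labelled wild type, or 2.65-fold lower. Of all genes past the filter, 7.35% had a lower difference still. Bag2, which restrains the HSP70-bound ubiquitin ligase Stub1, read 8.12 on the array labelled Mof null and 9.22 on the array labelled wild type, 2.14-fold lower. Bag3 and Bag2 were each read by 1 probe set. Bag4, a binder of death domain receptors, read 10.36 on the array labelled Mof null and 9.35 on the array labelled wild type, 2.01-fold higher. Its other probe sets differed by 0.28 and 0.75, and after centring on the median gene its brightest was at 0.90, under 2-fold. Bag1, Bag5 and Bag6 stayed within -0.22 to 0.21. Of the partners with which BAG3 forms a complex, Hspb8 was lower as given above, while Hspa8 and Stub1 differed by 0.10 and 0.15.

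Type A J proteins, close relatives of bacterial DnaJ, had none of 4 genes past 2-fold on its brightest probe set, against 16.4% of all genes. Dnaja4 had 3 probe sets, all lower with the Mof null label. They read 7.0, 5.97 and 5.96 on the array labelled Mof null and 7.95, 7.84 and 6.45 on the array labelled wild type, differences of -0.95, -1.86 and -0.49. Only the second passed 2-fold. The second and the third read below the filter value on the array labelled Mof null, so both passed the level filter through the array labelled wild type alone. Since the brightest did not pass 2-fold, Dnaja4 is outside the count of 9. Dnaja1 and Dnaja2, the main cytosolic members, differed by 0.10 and -0.12. Their probe sets spanned -0.33 to 0.10 and -0.17 to 0.74, so both genes had probe sets of both signs.

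Type B J proteins had 3 of 8 genes 2-fold lower and none 2-fold higher, against 11.5% and 4.88% of all genes. By probe set 4 of 16 were lower (25%, against 10.5% of all probe sets). Of these 16 probe sets 8 were above and 8 below 0, with a median of -0.19. Dnajb4, a cytosolic partner of HSP70, was the gene whose several probe sets past the filter all passed 2-fold, with 7.64 and 6.27 on the array labelled Mof null and 8.92 and 7.37 on the array labelled wild type. Dnajb14, anchored in the endoplasmic reticulum membrane, differed by -1.28 and -0.99 on its probe sets. Dnajb2, which binds ubiquitinated clients, read 7.34 on the array labelled Mof null and 8.45 on the array labelled wild type, 2.16-fold lower on its single probe set. Dnajb5 and Dnajb12 differed by -0.45 and -0.48, and Dnajb12 had a second probe set at 0.43. By contrast Dnajb1, the main stress-induced J protein of the cytosol, read 11.02 on the array labelled Mof null and 10.95 on the array labelled wild type, with a second probe set at 0.26. Dnajb6, a suppressor of aggregation, had 4 probe sets from 0.12 to 0.85. Dnajb13, a sperm flagellum gene, read 7.34 on the array labelled Mof null and 6.38 on the array labelled wild type. On the same arrays 9 male germ line markers past the filter had a median of 1.10, and their part in this value was not tested. The family median of -0.47 became 0.068 above percentile 75 and 0.033 with no filter.

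**Figure D3:**
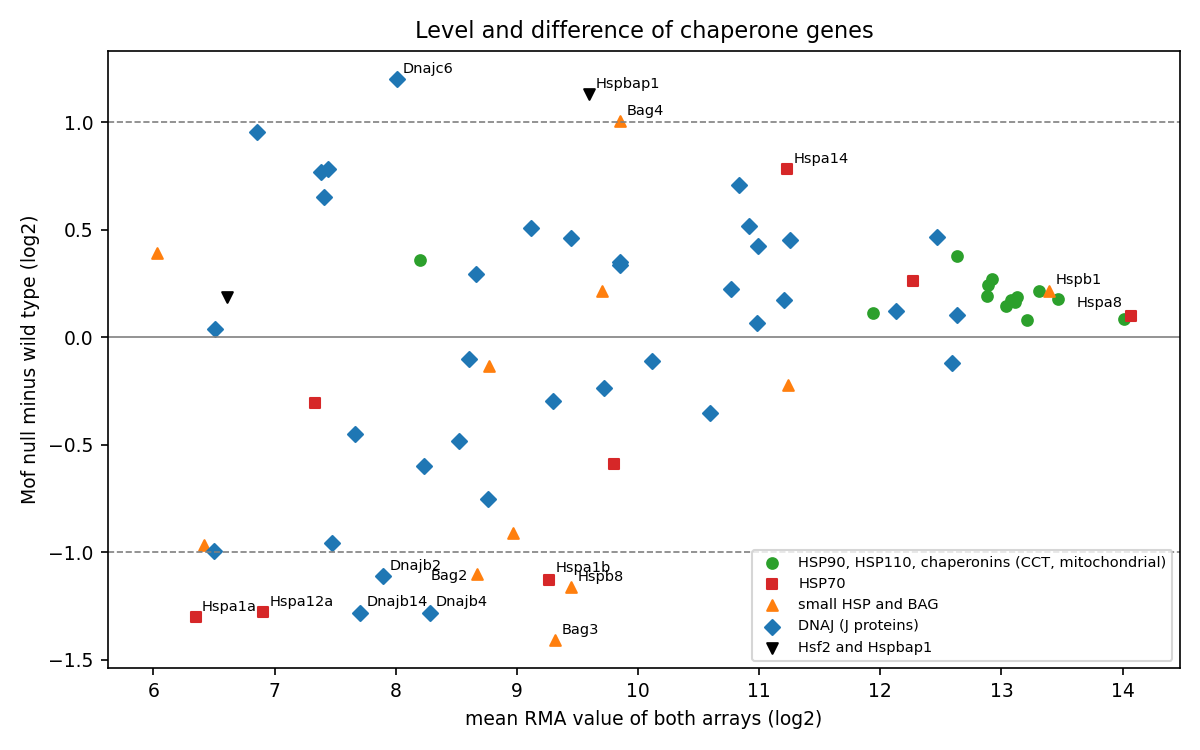
Mean RMA value of both arrays (horizontal, log2) and difference, labelled Mof null minus labelled wild type (vertical, log2), for the 71 chaperone genes past the filter, 1 point per gene, with colour and shape for the family. Dashed lines mark 2-fold. The 12 genes past 2-fold all have a mean level under 10, and the 19 genes with a mean level of 12 or more lie between -0.12 and 0.47.

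Type C J proteins were the largest group. Of 24 genes 16 were above 0 (66.7%, against 56.7% of all genes), with a median of 0.32. Among them 1 was 2-fold higher (4.17%, against 4.88% of all genes) and none was 2-fold lower (11.5% of all genes were). Dnajc6 (auxilin), which uncoats clathrin vesicles, read 8.61 on the array labelled Mof null and 7.41 on the array labelled wild type, 2.30-fold higher, with a second probe set past the filter at 0.61. Dnajc22 differed by 0.78 and, on a dimmer probe set, by 2.23, which read 7.86 on the array labelled Mof null and 5.62, below the filter value, on the array labelled wild type, so that it passed the filter through the array where it was high. Dnajc21, needed for maturation of the large ribosomal subunit, differed by 0.71 and 0.82 on its 2 probe sets past the filter. Dnajc8, a splicing factor, differed by 0.47 and 0.51, and Dnajc24, which acts in diphthamide synthesis, by 0.51 and 0.62. The lowest value was that of Dnajc25, at 6.00 on the array labelled Mof null, just below the filter value, and 7.0 on the array labelled wild type. Dnajc25 thus passed the filter through the array where it was high. Dnajc1, a membrane J protein of the endoplasmic reticulum, had 3 probe sets past the filter between -0.75 and -0.50, and Dnajc18 had 2 at -0.60 and -0.66. The synaptic vesicle protein gene Dnajc5 was lower on all 5 of its probe sets, from -0.61 to -0.24. The DNAJC median was -0.29 relative to the stem cell marker median.

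The 5 members grouped as endoplasmic reticulum proteins had a lower median than those grouped as mitochondrial, counted by their brightest probe sets. Hspa13, Dnajc1, Dnajb12 and Dnajb14 were below 0 and Dnajc10, a disulfide reductase, was at 0.42, for a median of -0.59 over 5 genes against 0.26 over the 7 mitochondrial genes. Other probe sets differed, at 0.43 for Dnajb12 and at 0.16 and -0.03 for Dnajc10. Both groups follow lists of names that may leave out further members of the same compartment. No test of this difference was possible with 1 array per genotype, and the groups are small.

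Of the factors that control the set, Hsf2 read 6.70 on the array labelled Mof null and 6.52 on the array labelled wild type. Hsf2bp, a binding partner of Hsf2 with a role in meiosis, was 2.17-fold higher, with a difference of 1.12, and a dimmer probe set gave 0.59. Hsbp1, a negative regulator of heat shock factor 1, differed by -0.20 and -0.87 on its probe sets. Hsf4 and Hsf5 were below the filter. Hspbap1, which binds Hspb1 and joins the members only by its name, read 10.16 on the array labelled Mof null and 9.03 on the array labelled wild type, 2.19-fold higher, with a second probe set past the filter at 0.79.

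Partner proteins outside the rule differed by list. Of 52 listed genes 47 were measured and 44 passed the filter, with a median of 0.26. Above 0 were 34 of the 44 (56.7% of all genes were). Among the 44, 2 were 2-fold higher and 1 was 2-fold lower, against 4.88% and 11.5% of all genes. Of 13 co-chaperones of HSP90, 12 were above 0 with a median of 0.31. Fkbp5, an immunophilin of the steroid receptor complex, read 10.86 on the array labelled Mof null and 9.84 on the array labelled wild type, 2.02-fold higher, and its relative Fkbp4 differed by 0.98 on the brightest probe set and 0.40 on another. Stip1, which bridges HSP70 and HSP90, differed by 0.59. All 6 prefoldin genes, whose product delivers actin and tubulin to CCT, differed by 0.32 to 0.65, and the 7 co-chaperones of HSP70 had a median of 0.15. Tubulin cofactors stayed within -0.06 to 0.20. The 3 helpers of CCT had a median of -0.41, with Pdcl at 0.78, Pdcl3 at -0.41 and Txndc9 at -0.55. Hsf2bp and Cryab were the other genes past 2-fold. The 20 stem cell markers past the filter had a median of 0.61 on the same arrays, and relative to it the median of all genes was -0.51.

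**Figure D4:**
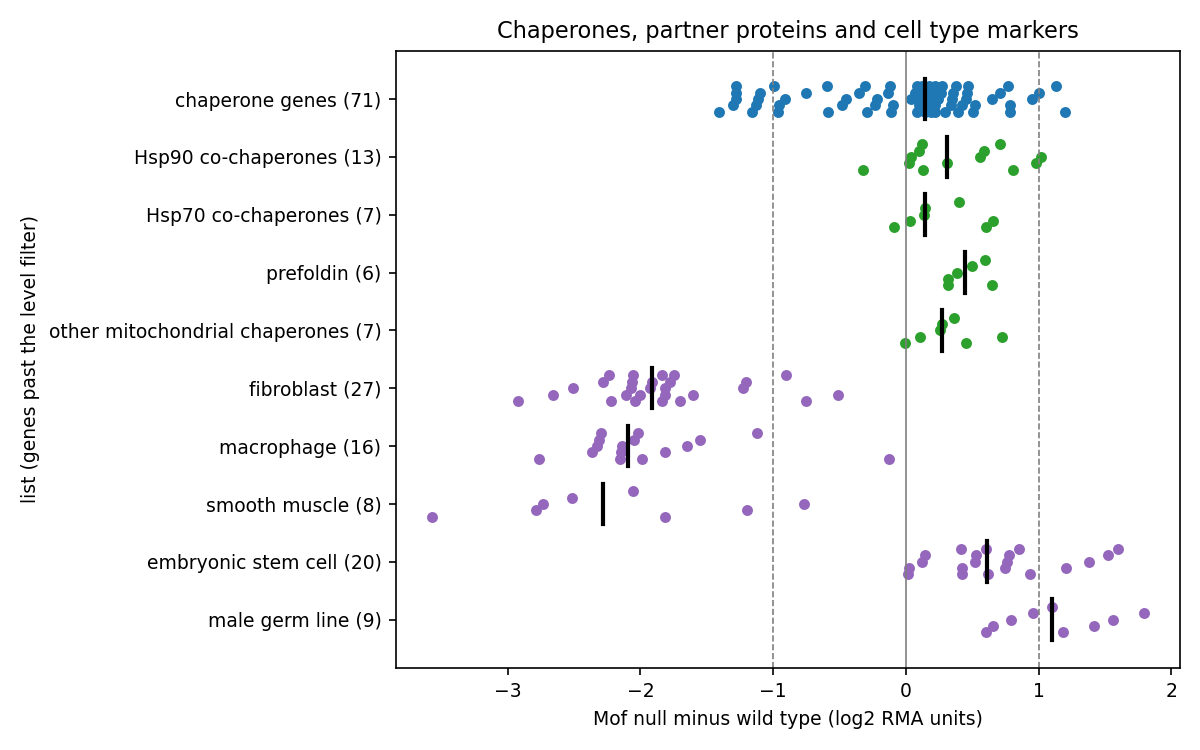
Differences, labelled Mof null minus labelled wild type (horizontal, log2 RMA units), of the 71 chaperone genes (blue), partner protein lists (green) and cell type marker lists (purple), 1 point per gene past the level filter, with black bars at the medians and dashed lines at 2-fold. Chaperone genes span -1.41 (Bag3) to 1.2 (Dnajc6), fibroblast markers have a median of -1.91, and stem cell markers have one of 0.61.

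The lower chaperone genes were lower on the same array as markers of other cell types. Besides the 27 fibroblast markers given above, 15 of 16 macrophage markers past the filter were 2-fold lower with a median of -2.09, from a summed intensity of the 18 measured ones of 6164 with the Mof null label against 22092 with the wild type label. The macrophage marker Csf1r read 7.65 on the array labelled Mof null and 9.81 on the array labelled wild type. Of 8 smooth muscle markers 7 were 2-fold lower, with a median of -2.28 and summed intensities of 8780 with the Mof null label and 34711 with the wild type label. Acta2 and Tagln are on both the fibroblast and the smooth muscle list. Counted by brightest probe set, the lowest chaperone difference was -1.41, for Bag3, and a dimmer Dnaja4 probe set gave -1.86. The part of these cell types in the lower values of chaperone genes was not tested.

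GAANNTTC stood in promoters of chaperone genes that were lower and of others that differed little. Windows were found for 67 of the 81 genes. GAANNTTC stood in at least 1 window of 16 of these, or 23.9%, against 9.04% of all 27025 genes with a window. TTCNNGAA stood in 8 of them, or 11.9%, against 9.60% of all genes, which is a smaller gap. There were 3 blocks in a row in 4 of them, or 5.97%, against 0.662%. The genes with 3 blocks in a row were Dnajb6, Hspd1, Hspe1 and Hsph1, whose differences were 0.12, 0.18, 0.19 and 0.11. Hspd1 and Hspe1 hold it in the stretch that their windows share, so these 4 genes stand for 3 places in the genome. GAANNTTC was held by 4 of the 9 genes that were 2-fold lower (Bag3, Hspa1a, Hspa1b and Hspb8), by 10 of 46 genes under 2-fold and by neither of the 2 higher genes with a window. The 10 under 2-fold include Hspb6 (-0.97), Dnaja4 (-0.95) and Dnajc27 (0.77), and the rest lay between 0.10 (Dnaja1) and 0.22 (Hspb1). The windows of Hspa1a and Hspa1b are near copies and not 2 independent matches. Of all genes past the filter, 77 of 642 with GAANNTTC were 2-fold lower, against 930 of 8764 without it. Among the chaperone genes past the filter, the 14 with GAANNTTC had a median difference of 0.11 and the 43 without it one of 0.17. For all genes past the filter these medians were 0.081 and 0.10. A match is a run of letters only, and a window without one says nothing about a factor's binding.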

How the data were processed

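Total RNA of 2 embryonic stem cell cultures was hybridised to 1 array per culture. The authors deposited log2 values of 45101 probe sets, and RMA, affy and R 2.10.0 are named in the submitters' processing notes. The log2 scale was read from the values (2.77 to 14.7). RMA quantile-normalizes arrays, so a global shift in transcript level is removed. For arrays, their number limits the precision, here 1 per genotype, and no test was run.

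Gene names came from the platform's annotation: 35890 are listed, 932 of these name several genes, and 9211 are unnamed here. Entrez IDs of 34741 of the 34945 probe sets used were found in the RefSeq table of GRCm38.p6, which changed no symbol. A gene took its probe set with the highest mean and passed the level filter at a mean of 6.02 (percentile 50). Promoter windows came from the RefSeq table of the same assembly. Named genes are those with a probe set past 2-fold, the extremes of each family and a fixed set of main chaperones; other genes were named to describe their family after values were seen. Members, lists and alternatives were chosen with earlier results of these data known. The counting was tested on simulated data. Alternatives covered probe set choice, level filter, scaling and fold threshold. The work used Python 3.11.15, pandas 2.3.3, numpy 2.4.6, statsmodels 0.14.6 and matplotlib 3.10.9.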

Additional observations from a re-analysis of the deposited data

How the results depend on the processing

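With 1 array per genotype, leaving out an array was not possible, and the spread used to judge shifts is the pooled SD of 0.32 between probe sets of a gene, which holds no variation between cultures. Medians that moved by less than this under centring, trend correction (lowess, span 0.3), quantile normalization, a filter on the higher of the arrays and removal of probe sets whose names end in _s_at, _x_at or _a_at include the chaperone median (0.14) and every family median. With the probe sets of a gene averaged, 6 genes were lower and 1 higher, the small HSP median was -0.39 and the value of Hspbap1 0.57. With no level filter the small HSP and DNAJB medians were -0.20 and 0.033. At percentile 75, 4 of 51 chaperone genes were lower and 2 higher, beside 9.54% and 3.53% of all genes. The HSP70 and DNAJB medians were then 0.10 and 0.068, and Hsf2 had no value. Under trend correction 1 gene was higher, beside 3.76% of all genes. Relative to the stem cell marker median, 18 genes were lower and 0 higher, the chaperone median was -0.46, and the medians were -0.52 for HSP90, -1.06 for HSP70, -0.25 for HSP110, -0.43 for the mitochondrial chaperonin, -1.52 for small HSP, -0.62 for DNAJA, -1.08 for DNAJB, -0.29 for DNAJC, -0.43 for CCT, -0.79 for BAG, -0.42 for Hsf2 and 0.52 for Hspbap1, since the same 0.61 is taken from each; the median of all genes was then -0.51. With a threshold of 1.5-fold the counts were 16 lower and 9 higher, beside 18.8% and 17.0% of all genes, and at 4-fold 0 and 0, with 3.10% and 0.250% of all genes. Bag4 was under 2-fold after centring (0.90) and trend correction (0.86), and Hspbap1 just under it after trend correction (0.998).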

Other observations

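Differences among chaperone genes were small where the mean level was high. Of the 19 genes with a mean level of 12 or more, which include CCT, Hspa8, Hsp90aa1, Hspa9, Hspb1, Hspd1 and Hspe1, 18 were above 0, none passed 2-fold and the SD over genes was 0.12. Of the 602 genes of all kinds at that level, 64.3% were above 0. Among them 35 (5.81%) were 2-fold lower and 5 (0.831%) higher, with an SD of 0.53. Of the 16 chaperone genes with a mean level from the filter to 8, 4 were 2-fold lower (25%), 0 were higher and the SD was 0.84. The 3707 genes of all kinds there had 14.9% lower, 6.96% higher and an SD of 0.88. From 8 to 10, 5 of 24 chaperone genes were lower (20.8%) and 3 higher (12.5%), against 11.3% and 4.91% of all genes. From 10 to 12, none of 12 chaperone genes passed 2-fold, while 8.50% of all genes were lower and 2.86% higher.

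Below the level filter were 10 chaperone genes: Cct6b, Cct8l1, Dnajb3, Dnajb7, Dnajb8, Hspa12b, Hspa1l, Hspb3, Hspb7 and Hspb9. Hspa12b, a relative of HSP70 known from endothelial cells, read 4.90 on the array labelled Mof null and 6.10 on the array labelled wild type, and the others differed by between -0.22 and 0.39. Several of these are known from testis or muscle.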
